A study of Drosophila melanogaster with 5 samples.

Results

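Cytosolic ribosomal proteins form, with ribosomal RNA, the large and the small subunit of the ribosome that translates nuclear transcripts in the cytoplasm. The small subunit reads the messenger RNA, and the large subunit joins amino acids and passes the chain out through its exit tunnel. Insulin and TOR signalling are known to promote ribosome production, and in flies loss of 1 copy of many ribosomal protein genes slows growth, the Minute phenotype. The genes described here were those of probes with a single gene symbol that starts with RpL or RpS followed by a number (with at most 1 letter between them), or that is sta or sop. The rule found 36 genes, 22 of the large and 14 of the small subunit, measured by 44 probes, out of 10124 genes and 14972 probes with a value. Neither sta nor sop was among them, and of 93 symbols in the RefSeq gene table that match the rule, 57 were not analysed here.

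RNA of whole Drosophila melanogaster females, 14 days old and fed only yeast paste for the last 48 h, was compared on 5 two-colour arrays from 2 biological repeats. IPC-deficient females (IPC, insulin-producing cell) carried the InsP3-Gal4 driver with UAS-RPR/HID, the cell death genes reaper and hid under Gal4 control, and control females carried the same driver with UAS-LacZ. IPC-deficient RNA was in Cy5 on 2 arrays and in Cy3 on 3. The labels do not say how many flies were pooled per RNA or which repeat each array held.

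The authors deposited 1 signed fold change per probe, with the same value in each array's column. Neither arrays nor flies therefore have a measurable spread, and no test could be run. Each fold is given as a log2 value with its sign, and a gene's value is the median over its probes. Which RNA the fold has as its numerator is not stated. A positive value is read as likely higher in IPC-deficient flies, because the design names them first and tobi, named as a target of brain insulin, stood at -4.10 on the log2 scale. The sign of tobi is thus part of this reading, and with the sign turned every direction would be the opposite. Ilp2, an insulin-like peptide of the ablated cells, stood at 0.01 from 4 of 10 possible spots and gave no check of the ablation. The error used is the pooled SD between unlike probes of the same gene, 0.18 log2 units (from 1437 probes, filled on all 5 arrays, of 647 genes), which covers probes and not flies. The number of filled spots, 2 copies on 5 arrays and so 10 at most, tells how completely a probe was measured.

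Most ribosomal protein genes stood slightly above 0, and none of these was far from it. Of the 36 genes, 32 were above 0 and 4 below, where 48.1% of all measured genes were above 0. Their median was 0.18, with an interquartile range of 0.10 to 0.26, beside a median of -0.01 and a range of -0.12 to 0.11 for all genes. The highest gene reached 1.45-fold. At 1.5-fold or more, 0 of the 36 lay on the positive side, where 2.24% of all genes did, and 1 on the negative side, where 3.11% did. By value, 18 genes were above the SD between probes (15.4% of all genes), 3 were below its negative (16.8% of all genes) and 15 lay within it. The SD comes from probes filled on all 5 arrays, so it is not the error of members on fewer arrays. Among the latter, RpL37-2 and RpS28a were counted above it, and RpL10Aa and RpL39 below its negative. Apart from the step of 2.06 between RpL39 and RpL27 at the negative end, neighbours in the order of values differed by at most 0.15, less than that SD, so the order of neighbouring genes is not resolved.

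**Figure D1:**
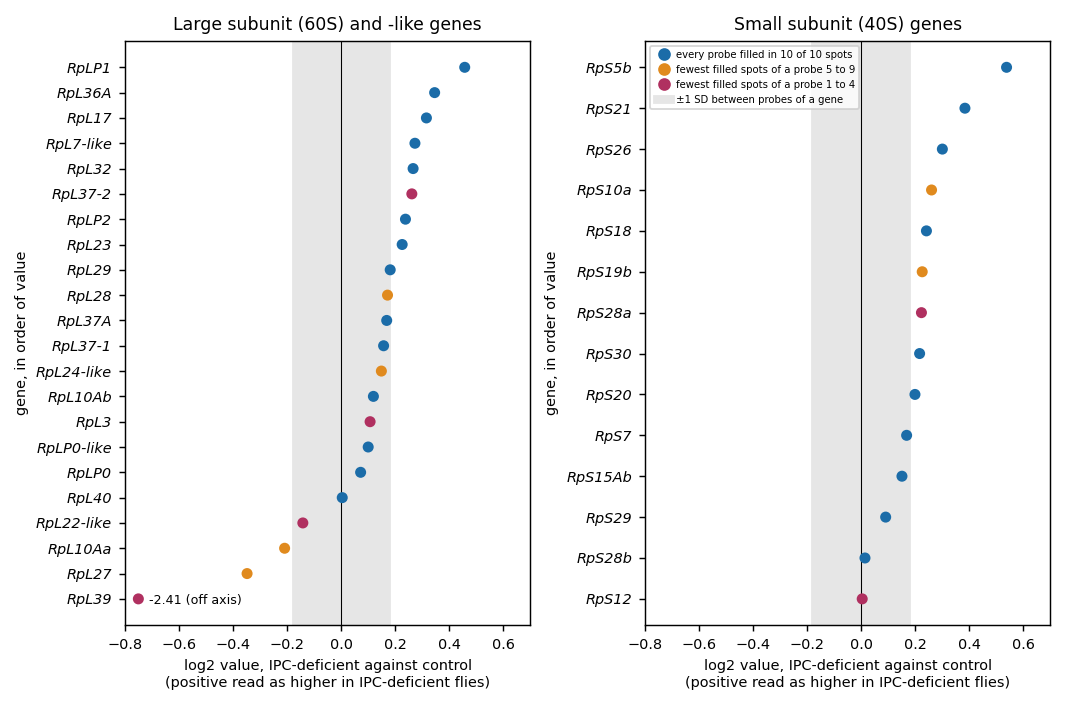
Log2 value (x axis) of each of the 22 large subunit and -like genes (left) and the 14 small subunit genes (right), 1 point per gene in order of value, coloured by the fewest filled spots among its probes. The grey band marks 1 SD between probes of a gene (0.18); all 14 small subunit genes lie above 0, and the 4 genes below 0 are RpL22-like, RpL10Aa, RpL27 and, off the axis at -2.41, RpL39.

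In the large subunit, the stalk proteins bind the elongation factors that drive each step of translation. RpLP1, an acidic protein of the stalk, stood at 0.46 (1.37-fold), the highest value of the large subunit, and its partner RpLP2 stood at 0.24. RpLP0, which anchors both to the ribosome, stood at 0.07, within the SD between probes. All of these probes had 10 filled spots. RpLP1 exceeded both RpLP2 and RpLP0 by more than that SD, whereas RpLP2 and RpLP0 were closer than it.

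Several large subunit proteins line the path of the growing chain and of the transfer RNAs. RpL36A, which touches the transfer RNA as it leaves, stood at 0.35. RpL17, which lines the exit tunnel, stood at 0.32, and its 2 probes at 0.29 and 0.34 were closer than the SD between probes. RpL3, which reaches towards the site of peptide bond formation, stood at 0.11 and RpL10Ab, of the flexible arm through which spent transfer RNA leaves, at 0.12. RpL10Aa, the paralog of RpL10Ab, stood at -0.21. RpL39, a small protein of the exit tunnel, stood at -2.41, a 5.32-fold difference on the negative side from 3 filled spots on 2 arrays. RpL39 was the only member beyond 1.5-fold.

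The other large subunit genes above 0 held a narrow range. RpL32, whose transcript is a common reference for quantitative PCR in flies, stood at 0.27 (1.20-fold). RpL23, which contacts the small subunit, stood at 0.23 at both of its probes. RpL29, RpL28, RpL37A and RpL37-1, the last 2 zinc-binding proteins, stood at 0.18, 0.17, 0.17 and 0.16. RpL40, which is made as a fusion with ubiquitin and released from it, stood at 0.00 from 10 spots, the value of the large subunit nearest to 0. RpL27 stood on the negative side, at -0.35 (1.27-fold), and was the only gene below 0 measured on all 5 arrays, from 9 spots.

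All 14 small subunit genes were above 0. RpS5b, a paralog of RpS5a known to be enriched in the ovary, had the highest value of all members at 0.54 (1.45-fold, 10 spots), and 97.3% of all genes stood below it. RpS21, whose mutants overgrow the larval blood-forming organs, stood at 0.38 and RpS26, which sits where messenger RNA leaves the subunit, at 0.30. The values of RpS10a, RpS18, RpS19b, RpS28a, RpS30, RpS20, RpS7 and RpS15Ab lay between 0.15 and 0.26. Among them RpS30, which is made as a fusion with a ubiquitin-like protein, stood at 0.22, RpS18, of the head of the subunit, at 0.24 and RpS7, known for its part in maturing the small subunit's RNA, at 0.17. The lowest were RpS29 at 0.09, RpS28b at 0.01 and RpS12 at 0.00. RpS12 is known in flies for its role in competition between normal and Minute cells, and its value lies midway between its probes, at 0.18 from 10 spots and -0.18 from 4.

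The median was 0.22 over the 14 small subunit genes and 0.16 over the 22 large subunit genes. The difference, large minus small, was -0.06. Over the genes with every probe filled in all 10 spots, the medians were 0.20 for 14 large subunit genes and 0.21 for 10 small subunit genes. The difference between the subunits was not tested, and the error of a list's median over flies is not known. The 4 genes below 0 all belonged to the large subunit, and all had fewer than 10 filled spots.

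The 4 -like genes encode relatives of large subunit proteins. RpL7-like, RpL24-like and RpLP0-like are related to yeast proteins that assemble the large subunit rather than stay in it, and they stood at 0.27, 0.15 and 0.10. RpL22-like, a paralog of RpL22 known from the male germ line, stood at -0.14 from 2 spots. Without these 4 genes, the large subunit median was 0.17 over 18 genes.

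Among 13 pairs of paralogs named by symbol, 4 had both genes measured, 7 had 1 and 2 had none. RpL10Aa stood at -0.21 from 5 spots and RpL10Ab at 0.12 from 10, a difference of 0.33 that exceeded the SD between probes of 0.18 for well measured probes but not the SD of 0.56 over all probes. RpS28a stood at 0.22 from 3 spots and RpS28b at 0.01 from 10, a difference of 0.21, also between those SDs. Both SDs are those of a single probe value, and a difference between 2 values has a larger error. RpL37-1 and RpL37-2 stood at 0.16 and 0.26, and RpL37-2 had 4 spots. RpLP0 and RpLP0-like, both with 10 spots, differed by 0.03. In each of the first 3 pairs, the difference rested on a gene with at most 5 filled spots. Spotted probes of near-identical paralogs can cross-hybridise, so values of single paralogs are uncertain. For RpS5b, RpS10a, RpS15Ab and RpS19b, at 0.54, 0.26, 0.15 and 0.23, the partner was not analysed here. The 15 genes with a paralog by symbol, -like genes included, had a median of 0.15, and the 21 without one by symbol a median of 0.20. Over the genes filled in all 10 spots these were 0.14 (8 genes) and 0.23 (16 genes). Of these, 2 of the 8 and 12 of the 16 were above the SD between probes, beside 14.2% of all such genes. The difference was not tested.

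**Figure D2:**
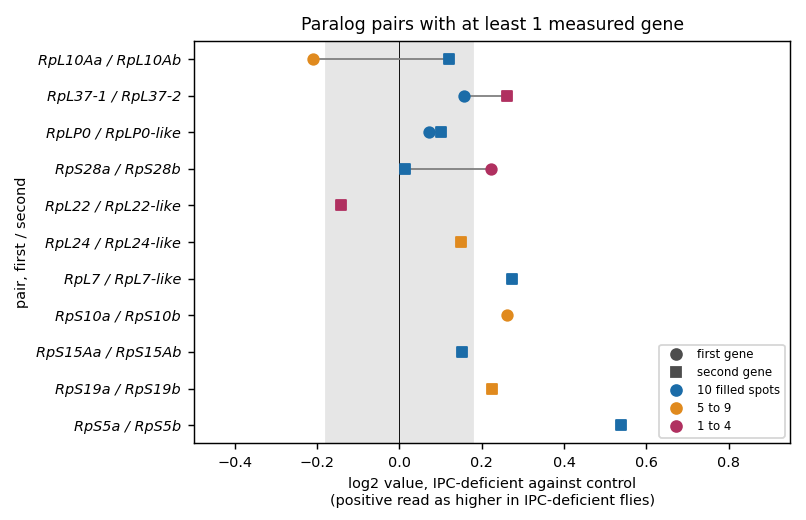
Log2 values (x axis) of the 11 paralog pairs with at least 1 measured gene, 1 row per pair, circles for the first and squares for the second gene named, coloured by filled spots, with a line joining pairs measured in full and the grey band at 1 SD between probes (0.18). RpL10Aa and RpL10Ab lie on opposite sides of 0, and RpS5b stands furthest right at 0.54.

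Ribosomal protein probes were more completely filled than most. Of the 44 probes, 31 (70.5%) had all 10 spots, beside 38.9% of 11734 named probes with a value. All 31 stood above 0, between 0.00 and 0.54. At the gene level, 24 of the 36 genes had every probe in all 10 spots. All 24 of these were above 0, where 47.3% of the 3568 such genes in the series were, and 14 were above the SD between probes, where 14.2% were. The SD over these 24 genes was 0.13, beside 0.23 over the 3568. Because the table holds no intensities, the genes could not be set beside other genes of like brightness.

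The 6 probes below 0 had from 2 to 9 filled spots. The RpL27 probe had 9 and the RpL10Aa probe 5, and the other 4 had at most 4. Of the 6 ribosomal protein probes with 1 to 4 spots, 4 were below 0 and 2 were beyond 1.5-fold on the negative side, the RpL39 probe and a probe of RpL3. Among all named probes with 1 to 4 spots, 40.4% were above 0, beside 33.3% of these 6. Beyond 1.5-fold on the negative side were 14.8% of all named probes with 1 to 4 spots, against 0.395% of those with 10. The RpL39 value lay far out among probes with as few spots: 11 of 605 named probes with 3 filled spots stood at or below it, RpL39 included. The 20 probes within 2 spots of it on the array had a median of 0.03, with 8 below 0.

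**Figure D3:**
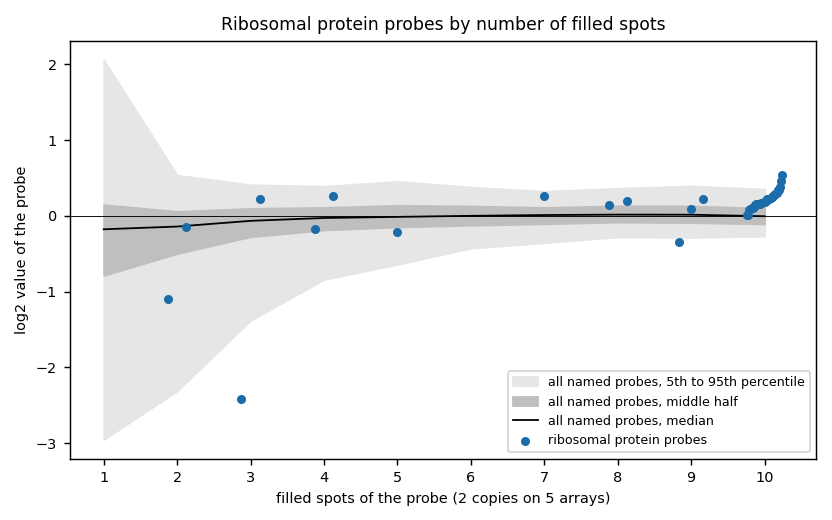
Log2 value (y axis) of each of the 44 ribosomal protein probes (blue points, spread sideways within a class) against its number of filled spots (x axis), over the median, interquartile range and 5th to 95th percentile of all named probes. The 31 probes with 10 spots all lie above 0, while the probes at -1.10 (RpL3) and -2.41 (RpL39) had 2 and 3 spots.

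Several genes had more than 1 probe. The probes of RpL3 stood at 0.09, 0.11, 0.15 and 0.16 from 9 or 10 spots each, and the remaining one at -1.10 from 2 spots. The 2 probes of RpL28 stood at 0.15 and 0.19. Over the 3 genes with different probes on all 5 arrays (8 probes), the SD between probes was 0.03, and over all probes of the 4 genes with different probes (11 probes) it was 0.43. Both values rest on few genes. RpL23 had 2 probes of the same value, counted once.

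**Figure D4:**
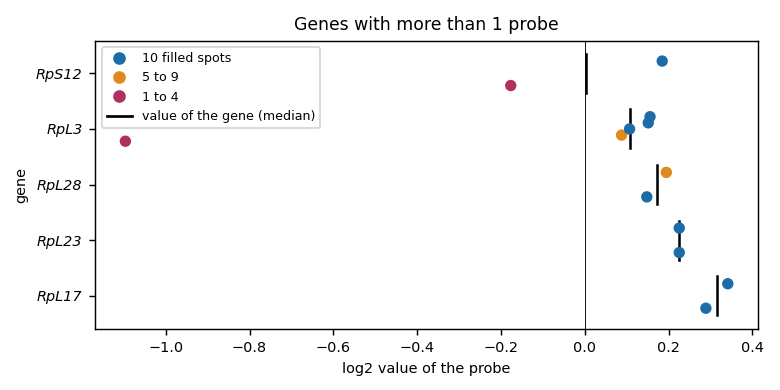
Log2 values (x axis) of single probes for the 5 genes with more than 1 probe, coloured by filled spots, with a black bar at the gene's value. The well filled probes of RpL3, RpL17 and RpL28 lie together, and the probes of RpL23 have the same value. The probes of RpL3 at -1.10 and of RpS12 at -0.18 had 2 and 4 spots.

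Other parts of the translation machinery stood closer to 0. For their counts above 0, the share over all measured genes was 48.1%. The 62 mitochondrial ribosomal protein genes, whose products serve the ribosome inside mitochondria, had a median of 0.04 with 41 above 0. Their lowest value was -1.25. Among those on all 5 arrays, the furthest from 0 were mRpS9 at 0.42, mRpL42 at 0.40 and mRpS31 at -0.37. The 39 genes of translation initiation and elongation factors had a median of 0.06 with 22 above 0 and a lowest value of -1.17. Of these, the furthest from 0 on all 5 arrays were eIF3k at 0.48, eIF4G1 at -0.43 and eIF3h at 0.29. The 12 measured of 16 listed genes of ribosome production in the nucleolus had a median of 0.02 with 7 above 0, with Non1 at 0.51, Surf6 at -0.27 and Polr1A, of RNA polymerase I, at -1.40. Over genes filled in all 10 spots, the medians were 0.03 for 37 mitochondrial ribosomal protein genes, 0.06 for 26 translation factor genes and 0.02 for 8 ribosome production genes, beside 0.21 for the 24 cytosolic ribosomal protein genes. Above the SD between probes were 6 of the 37, 3 of the 26, 2 of the 8 and 14 of the 24, in that order. Over all 3568 genes filled in all 10 spots, the share was 14.2%. The mitochondrial ribosomal protein and translation factor genes were thus near that share, at 16.2% and 11.5%. These are descriptions of the same RNA samples, and the differences between lists were not tested.

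**Figure D5:**
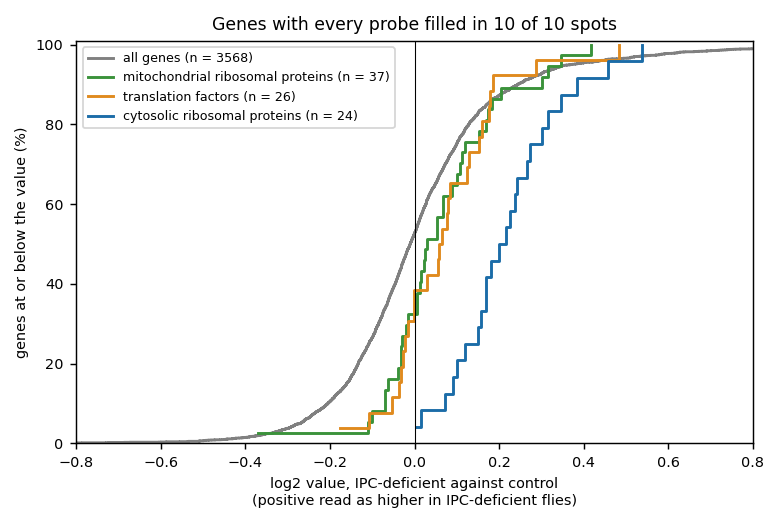
Cumulative share (y axis, percent) of genes at or below each log2 value (x axis), for genes with every probe in all 10 spots: all genes (3568), mitochondrial ribosomal proteins (37), translation factors (26) and cytosolic ribosomal proteins (24). The cytosolic curve starts at 0.00 and crosses its median at 0.21, to the right of the other 3 curves; the x axis is limited to -0.8 to 0.8, and a few genes of the whole series lie beyond it.

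The neighbours of these genes, on the array and in the genome, had medians close to 0. The 44 probes lay in 19 of the 24 pairs of array blocks. The 866 other probes with a value within 2 spots of them had a median of 0.01, and the 352 of these with 10 filled spots had 185 above 0. The nearest measured genes on either side of each member in the genome, 72 genes, had a median of -0.02 with 34 above 0. RpL10Aa and RpS5b, with 3 protein-coding genes between them, stood on opposite sides at -0.21 and 0.54. RpS20 and RpS30, with 6 genes between them, stood at 0.20 and 0.22.

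The RNA came from whole animals, so fewer cells of a type and less RNA per cell cannot be told apart. Of the 8 measured female germ line markers, 6 were below 0, with a median of -0.13 and a range of -0.27 to 0.07. Over all measured genes, 48.1% were above 0. Among the members, RpS5b, known to be enriched in the ovary, stood at 0.54 and RpS19b, known from the germ line, at 0.23. RpL22-like, known from the male germ line, stood at -0.14 from 2 spots. Markers of follicle cells and eggshell were divided, with 6 of 11 above 0, a median of 0.19 and a range of -0.54 to 0.67. The 6 were the chorion genes Cp15, Cp16, Cp18, Cp19, Cp36 and Cp38, at 0.19 to 0.67. Below 0 were Vm26Aa, Vm32E, Vm34Ca, dec and Femcoat, at -0.54 to -0.11. Muscle markers were mostly positive, 5 of 6 with a median of 0.40 and a range of -0.58 to 1.17. Testis markers (5 of 5) and accessory gland markers (4 of 4) were below 0, with ranges of -0.59 to -0.05 and -1.32 to -0.47 in these females. The accessory gland markers had only 3 to 5 filled spots, and the testis markers 3 to 10. Of named probes with 1 to 4 spots, 14.8% were beyond 1.5-fold on the negative side, beside 2.14% of those with 5 to 9. Markers with few filled spots are therefore uncertain. The testis markers Mst98Cb, Mst87F and Mst98Ca had 9, 9 and 10 filled spots and stood at -0.59, -0.27 and -0.05. The part of these tissues in the values of the ribosomal protein genes was not tested.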

How the data were processed

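The table held 32448 spotted features. Per the series' design text, each array was scanned 3 times, and both spot copies and all hybridisations entered the authors' normalization. The method, any background correction and the reason for empty cells: not given in the sources used here. As deposited, each value was a signed fold change made by the authors: 0 of 29507 features had an absolute value under 1, and of 27376 features filled in 2 or more columns, 0 differed by more than 1e-06. A limma fit, planned in case arrays had separate values, was therefore not run. Column medians on the log2 scale were -0.00 to 0.01.

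Copies were joined into probes, and probes into genes by the median, counting values equal to 5 decimals once. Symbols came from a platform annotation of 2007, updated through a RefSeq gene table of Release 6. Of 16224 probes, 12536 had 1 symbol, 3 several and 3685 none. Coordinates are left out because the sources name no build for the arrays. The members, the comparison lists and the 1.5-fold threshold were chosen with earlier results of these data known. All member genes could be named, and from each comparison list up to 3 genes on all 5 arrays furthest from 0. Paralogs were paired by suffix or by -like, and RpL37-1 with RpL37-2 was added after the values were seen. The log2 conversion was tested on simulated data. Alternatives were other ways of joining probes, minimums of filled spots, column centring, a 2-fold threshold and other memberships. The number of arrays limits the precision. Python 3.11.15, numpy 2.4.6, pandas 2.3.3 and matplotlib 3.10.9 were used.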

Additional observations from a re-analysis of the deposited data

How the results depend on the processing

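The median of the ribosomal protein genes stayed between 0.17 and 0.21 and the number above 0 between 24 and 32 under the alternatives, the lowest number being that of the 24 genes with all 10 spots, an alternative added after seeing the data. The number at 1.5-fold or more was 1, RpL39, also at 2-fold, and was 0 over genes on all 5 arrays, over probes with at least 5 spots, over genes with all 10 spots and without RpL39, since each of these settings leaves that gene out. The large minus small subunit median ran from -0.07 to -0.00. The difference RpL10Aa minus RpL10Ab was -0.33 wherever both genes were kept. With the mean over probes in place of the median, RpL3 stood at -0.12 in place of 0.11, because of its probe with 2 spots. Leaving out each array in turn left the median at 0.18 and the counts at 32 and 1, but the deposited values already combine all arrays, so this changes only which probes are filled and says nothing about the spread between arrays. Single values from few filled spots (RpL39, RpL22-like, RpS28a and RpL37-2) are the least certain.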
